A study of Mus musculus with 4 samples.

Results

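A set of 10 genes that the liver is known for, those of transthyretin (Ttr), retinol-binding protein 4 (Rbp4), vitamin D-binding protein (Gc), fetuin-A (Ahsg), inter-alpha-trypsin inhibitor heavy chain 2 (Itih2), albumin (Alb), the beta and gamma chains of fibrinogen (Fgb, Fgg), the alpha-1-microglobulin and bikunin precursor (Ambp) and transferrin (Trf), were followed in mouse lung tumour cells. They were taken by symbol out of the 32289 features counted in each library, and all 10 were found. Single-cell RNA was counted in 4 libraries, 1 per group, as unique molecular identifiers (UMIs), each standing for 1 captured RNA molecule. All 4 groups came from mice with the same alleles, among them p53frt, a p53 that the recombinase Flp deletes, Rosa-FSF-CreERT2, a tamoxifen-inducible Cre that Flp switches on, and Hnf4aflox, an Hnf4a that active Cre can delete. Tumours were started with an adenovirus carrying FlpO under the mSPC promoter (surfactant protein C, active in alveolar type 2 cells), so Flp was to be made in lung cells that use that promoter. Tamoxifen or vehicle was given 10 weeks after the virus and tumours were taken 2 weeks later. The labels name the vehicle both as ethanol and as corn oil, and give neither the ages nor the number of animals or tumours pooled. Each suspension was sampled before and after removal of CD45-positive and CD31-positive cells, so a library before depletion and its partner after depletion share their source and do not replicate each other. No group has a second library, so no difference has a replicate check or a test, and the intervals given are 95% intervals that cover counting error only.

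The products of these genes circulate in blood. Transthyretin binds retinol-binding protein and keeps it from being filtered out in the kidney, and that pair carries retinol, while vitamin D-binding protein, albumin and transferrin carry vitamin D metabolites, fatty acids and iron. Itih2 encodes a heavy chain that is joined to bikunin, which is cut from the Ambp product, and the complex stabilises hyaluronan. Fetuin-A binds calcium phosphate, and the alpha, beta and gamma chains of fibrinogen, from Fga, Fgb and Fgg, assemble into the clotting protein. Their transcription in hepatocytes is known to rest on liver-enriched factors, among them HNF4A. HNF4A and several of its targets are also known from lung adenocarcinomas of gastric type.

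The promoters of 3 members are set out: Rbp4, which was lower in the libraries labelled tamoxifen, and Itih2 and Ahsg, which were higher. Of the FOXA, HNF4 and C/EBP sites given below, Rbp4 is the 1 member with a match. Matches to other motifs are not reported here. The sequences are RefSeq's, on GRCm38.p6, and each run is the 250 bases before an annotated start, 5′ to 3′ on the gene's own strand. Capitals mark the FOXA site TGTTTAC, which reads GTAAACA here because it lies on the other strand.
Rbp4: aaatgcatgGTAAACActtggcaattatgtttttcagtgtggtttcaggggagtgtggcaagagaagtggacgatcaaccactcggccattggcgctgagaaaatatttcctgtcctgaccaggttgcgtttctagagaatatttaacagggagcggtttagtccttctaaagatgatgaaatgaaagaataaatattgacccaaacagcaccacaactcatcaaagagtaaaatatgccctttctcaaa
Itih2: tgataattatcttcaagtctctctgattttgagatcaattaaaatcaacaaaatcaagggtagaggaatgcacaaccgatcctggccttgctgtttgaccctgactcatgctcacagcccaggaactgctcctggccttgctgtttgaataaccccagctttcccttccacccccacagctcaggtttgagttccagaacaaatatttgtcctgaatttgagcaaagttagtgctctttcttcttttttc
Ahsg: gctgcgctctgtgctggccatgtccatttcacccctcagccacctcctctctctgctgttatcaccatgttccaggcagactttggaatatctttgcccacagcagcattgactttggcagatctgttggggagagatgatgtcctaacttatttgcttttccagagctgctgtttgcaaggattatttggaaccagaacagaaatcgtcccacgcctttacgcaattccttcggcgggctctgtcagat
These stretches lie at chr19:38125322-38125571 on the minus strand (Rbp4), chr2:10130684-10130933 on the minus strand (Itih2) and chr16:22891765-22892014 on the plus strand (Ahsg). The last 2 lie within introns of longer GENCODE transcripts of the same genes, and none of the 3 overlaps an annotated exon.

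The Rbp4 match began 241 bases before the start. RefSeq's table held promoters for 8 of the 10 members (not Ttr and Trf), 9 promoters in all since Rbp4 has 2 starts. Searched on both strands of each 300-base promoter, which runs on 50 bases past the start, the FOXA site was found in 1 of the 9, against 3.65% of all 32851 promoters. The HNF4 sites CAAAGTCCA and CAAAGGTCA were in none of the 9, and in 0.475% and 0.478% of all promoters. The C/EBP site TTGCGCAA was likewise in none, and in 0.183% of all. A match is a description of letters, and its lack says only that these letters are not in the window.

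On GRCm38 (GENCODE release M21) several members are close neighbours. Fgg (chr3:83007724-83015049), Fga (chr3:83026076-83033627) and Fgb (chr3:83040141-83049863) stand in a row, with 11.03 kb between Fgg and Fga and 6.51 kb between Fga and Fgb. Alb (chr5:90460897-90476602) lies 14.1 kb from Afp, the alpha-fetoprotein gene, and 1003 kb from Gc (chr5:89417522-89457898), and Alb, Afp and Gc belong to the albumin gene family. The remaining members lie apart, Rbp4 at chr19:38116629-38125281, Ahsg at chr16:22891277-22899449, Itih2 at chr2:10094593-10131396, Ambp at chr4:63143275-63154799 and Trf at chr9:103204001-103230444.

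The libraries held 6558 to 7867 cell barcodes and 92644997 to 144994771 UMIs, and 6105 to 7355 cells passed the filters. Cells were clustered and classes named from marker genes, hence "X-like". The epithelial-like class, with 1092 and 6522 cells in the libraries labelled vehicle before and after depletion and 1109 and 7086 in those labelled tamoxifen, is the ground for the levels below. It held from 32309543 to 135777512 UMIs per library, and a median of 16848 to 28829 UMIs per cell. All 9 alveolar type 2 markers were present, summing to between 78866 and 88260 CPM (UMIs per 1000000 UMIs of the class). Pairs of libraries shared from 10 to 18 barcodes.

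The gene targeted by the design did not follow its label. Hnf4a, a nuclear receptor of liver, gut and tumours of gastric type, stood at 56.6 and 55.1 CPM in the libraries labelled vehicle (before and after depletion) compared with 85.6 and 82.8 CPM in those labelled tamoxifen. It was thus higher where deletion is named, by 0.59 and 0.58 on the log2 scale. Counts from 3′ ends do not show which exons the RNA holds, so the treatments are called by their labels throughout.

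Of the 10 members, 6 reached 10 CPM and 8 reached 1 CPM in at least 1 library of each pair. At 10 CPM, Ttr, Rbp4 and Gc were at least 2-fold lower in the library labelled tamoxifen than in that labelled vehicle in both pairs, as were 83 of all 9037 genes at that level (0.918%). Itih2 alone was at least 2-fold higher in both pairs, as were 0.376% of all genes. At 1 CPM, Ambp joined the lower members, making 4 of 8 against 1.14% of all 13919 genes, and Ahsg joined the higher, making 2 of 8 against 0.366%. The members were chosen with earlier results of these data known, so these shares describe the set and are no test. A negative ratio in both pairs was seen for 7 members, Fgb and Fgg under 1 CPM among them. A positive one was seen for 3 (Ahsg, Itih2, Trf). Over all genes at 1 CPM, 40.03% were negative and 34.38% positive in both pairs. The median log2 ratio over the 10 members was -0.66 before and -0.80 after depletion, beside -0.04 and 0.01 over all genes at 1 CPM. Ratios are log2 of the level in the library labelled tamoxifen over that labelled vehicle, with 1 CPM added to both, which understates differences of low genes, and their intervals are for the ratio without that addition.

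Most Ttr RNA lay in a small set of cells. State 5, an epithelial state described below, held 8792 of the 10296 Ttr UMIs and made up 10.2% and 17.7% of the epithelial-like cells in the libraries labelled vehicle against 1.53% and 2.95% in those labelled tamoxifen. Without state 5, no member was at least 2-fold lower in both pairs at 10 CPM, and Ttr alone was at 1 CPM. Without state 4, the counterpart for the higher members, none was at least 2-fold higher at either level. Which clusters are named epithelial-like bears on the same counts. A stricter naming rule, by which only the highest-scoring class may name a cluster, left 2942 of the 15809 cells unnamed, in 2 clusters of 1471 cells each. The hepatocyte list, which itself holds Alb, scored highest in 1 of them and the mesothelial list in the other, while all 7 epithelial markers were detected in both. The cells left out were 82.1% of state 5, 55.7% of state 3 and 99.5% of state 12. Under that rule no member was lower at either level, and the ratios of Ttr before depletion (0.70) and of Gc (0.12 and 0.43) turned positive. Rbp4 then stood at -0.05 before and -0.40 after depletion, and Ambp at -0.11 and -0.14.

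**Figure D1:**
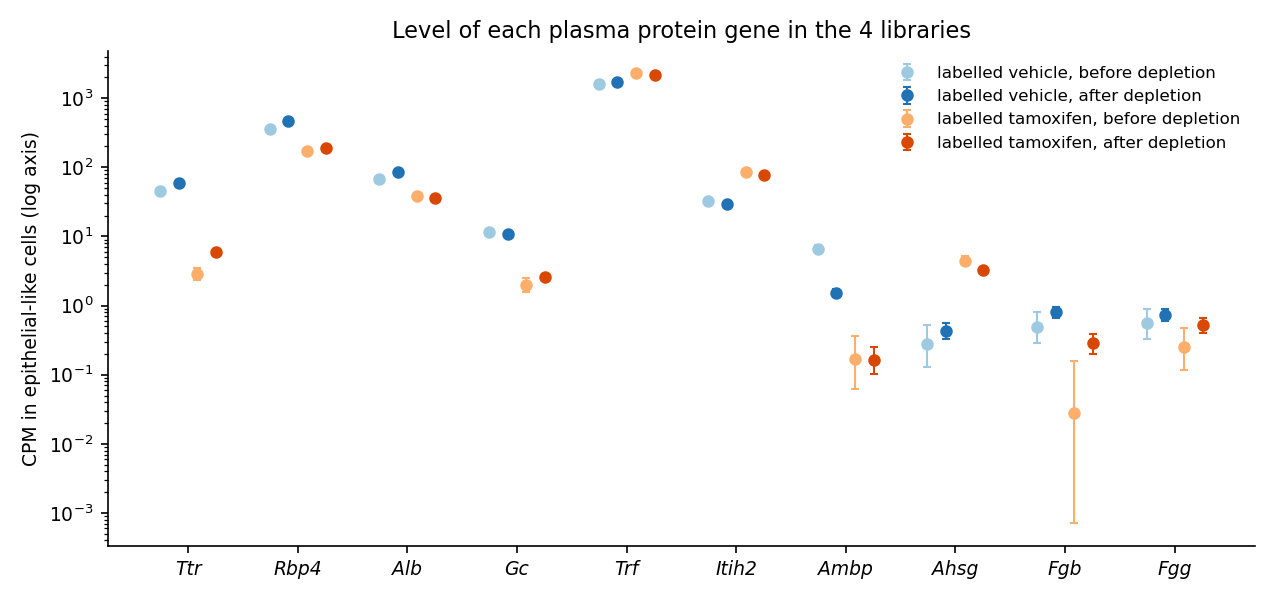
Level of each gene in epithelial-like cells, in CPM on a log axis, in the 4 libraries (points), with exact Poisson 95% intervals (bars). Ttr, Rbp4, Alb and Gc sit lower in both libraries labelled tamoxifen (orange) than in both labelled vehicle (blue), Itih2 and Ahsg sit higher, and Trf, at 1615 to 2278 CPM, is the highest in every library.

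Of the pair that carries retinol, Ttr differed most. Its level was 45.2 CPM before depletion and 58.5 CPM after depletion in the libraries labelled vehicle, and 2.90 and 5.93 CPM in those labelled tamoxifen. Both vehicle-labelled libraries were above both tamoxifen-labelled ones, by 11.9-fold before depletion and 8.58-fold after (log2 ratios -3.57, interval -4.27 to -3.68, and -3.10, interval -3.41 to -3.20). Ttr RNA was concentrated. In the libraries labelled vehicle it was seen in 8.24% and 11.4% of epithelial-like cells and in those labelled tamoxifen in 1.80% and 2.16%, and the 1% of cells with most Ttr held 49.9% to 91.3% of its UMIs. Cells with at least 5000 UMIs were then thinned to 5000 UMIs, which removes differences in depth among them. The shares were 3.88%, 6.07%, 0.652% and 0.893% in the same order. Left out as shallower were 112, 440, 35 and 367 cells.

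Rbp4 was a broad transcript in comparison. It stood at 363 and 473 CPM in the libraries labelled vehicle compared with 172 and 192 CPM in those labelled tamoxifen, so the groups again did not overlap. The log2 ratios were -1.07 (interval -1.12 to -1.03) and -1.30 (-1.32 to -1.28). Between 63.6% and 69.4% of epithelial-like cells had an Rbp4 UMI in every library. After thinning to 5000 UMIs, 40.9% and 52.2% of cells held one in the libraries labelled vehicle, and 39.7% and 40.6% in those labelled tamoxifen. The intervals of these shares overlapped before depletion (37.8% to 44.1% against 36.7% to 42.7%) and lay apart after it (51.0% to 53.5% against 39.5% to 41.8%).

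Alb and Gc, the other carriers of small molecules, were lower too, Gc by more. Gc stood at 11.7 and 10.7 CPM in the libraries labelled vehicle but at 1.997 and 2.61 CPM under the tamoxifen label. Its log2 ratios were -2.09 (interval -2.94 to -2.19) and -1.70 (-2.21 to -1.87). Alb stood at 66.7 and 85.1 CPM under the vehicle label and at 38.3 and 36.5 CPM under the tamoxifen label, with log2 ratios of -0.79 (-0.90 to -0.70) and -1.20 (-1.27 to -1.17). A single cell of state 4 held 494 of the 1361 Alb UMIs of the tamoxifen-labelled library before depletion. Without the 1 cell of each library that held most Alb, its ratios were -1.32 and -1.21, both past 2-fold. Without state 5, they were 0.50 and 0.14, but the first of these still includes the state 4 cell with 494 UMIs. Before depletion, state 5 held 1479 of the 2155 Alb UMIs under the vehicle label and 86 of the 1361 under the tamoxifen label. Leaving out state 5 and that cell together was not tested, so the turn before depletion cannot be credited to state 5 alone. Over the 5 states with at least 30 cells in each library, which exclude states 4 and 5, the Alb ratios were -0.83 and -0.37.

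Trf was the most abundant member, with 72.1% to 88.2% of all member UMIs. It stood at 1615 and 1708 CPM in the libraries labelled vehicle and 2278 and 2167 CPM in those labelled tamoxifen. Both tamoxifen-labelled libraries were higher, by less than 2-fold (log2 ratios 0.50, interval 0.48 to 0.51, and 0.34, interval 0.34 to 0.35). At least 82.0% of epithelial-like cells held a Trf UMI in each library. Summed over the other 9 members, the level was 526.7 and 660.2 CPM under the vehicle label and 306 and 319 CPM under the tamoxifen label.

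Itih2 and Ahsg ran the other way. Itih2 stood at 32.0 and 29.3 CPM in the libraries labelled vehicle compared with 85.7 and 77.3 CPM in those labelled tamoxifen. The groups did not overlap, and the log2 ratios were 1.39 (interval 1.32 to 1.52) and 1.37 (1.35 to 1.45). More cells held it as well. After thinning to 5000 UMIs, the share was 9.39% and 9.77% under the vehicle label and 20.2% in both libraries under the tamoxifen label.

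Ahsg was rare, with 9 and 58 UMIs in the libraries labelled vehicle and 159 and 443 in those labelled tamoxifen. These are 0.279 and 0.427 CPM against 4.47 and 3.31 CPM. The log2 ratios were 2.10 and 1.59 with 1 CPM added, and the intervals without it ran from 3.04 to 5.16 and from 2.56 to 3.37. Thinned to 5000 UMIs, 1.30% and 1.16% of cells held Ahsg under the tamoxifen label. Under the vehicle label these were 0 of 980 cells before depletion, which at that thinned depth allows a share of up to 0.306%, and 0.148% after. Unthinned, 0.458% and 0.414% of cells held an Ahsg UMI under the vehicle label and 4.87% and 3.25% under the tamoxifen label.

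Ambp, whose product supplies the light chain that Itih2's is joined to, did not move with Itih2. It stood at 6.65 and 1.54 CPM in the libraries labelled vehicle compared with 0.169 and 0.164 CPM in those labelled tamoxifen (215, 209, 6 and 22 UMIs). The log2 ratios were -2.71 (interval -6.76 to -4.16) and -1.13 (-3.93 to -2.59). The difference between the vehicle-labelled libraries came with 1 cycling cell that held 114 of the 215 UMIs before depletion, and a cell of state 5 held another 65. Without the 1 cell of each library that held most Ambp, the levels were 3.13, 1.44, 0.141 and 0.149 CPM, and both libraries labelled vehicle were still higher.

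The fibrinogen chains were near the limit of detection. Fgb gave 16 and 108 UMIs under the vehicle label and 1 and 38 under the tamoxifen label (0.495, 0.795, 0.0281 and 0.284 CPM), with ratio intervals from -9.53 to -1.45 and from -2.06 to -0.94 on the log2 scale. Of the 38, 29 lay in 4 cells, 18 of them in 1. Fgg gave 18, 99, 9 and 70 UMIs, or 0.557, 0.729, 0.253 and 0.523 CPM, and its intervals ran from -2.48 to 0.09 and from -0.94 to -0.02. Fga, the third chain, stood at 2.51 and 0.965 CPM under the vehicle label and 0.591 and 0.627 CPM under the tamoxifen label. Neither member reached 1 CPM, so neither could count as lower or higher.

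Epithelial-like cells were clustered again without the members, the plasma protein lists and every gene at least 2-fold apart between the labels, which gave 14 states named here by number and leading genes. State 5 (Tff3, Spink1, Tm4sf20; 1494 cells) was led by genes known from gut and gastric epithelium, among them Guca2a and Calml4. It held 15.03% of epithelial-like UMIs, but 85.4% of those of Ttr, 65.0% of Gc, 61.1% of Ambp, 60.1% of Fgb, 57.3% of Alb and 43.6% of Rbp4. State 4 (Jsrp1, Gsta3, Mlana; 1998 cells) held 14.6% of all UMIs, with 77.7% of Ahsg, 47.0% of Itih2 and 26.7% of Trf. State 2 (Lyz1, Cbr2, Cst8; 3251 cells), the most like ordinary alveolar type 2 cells by its summed alveolar type 2 markers (219231 CPM), held 12.7% of all UMIs and 69.9% of Fgg, with 137 of its 196 UMIs, and no Fgb UMI.

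**Figure D2:**
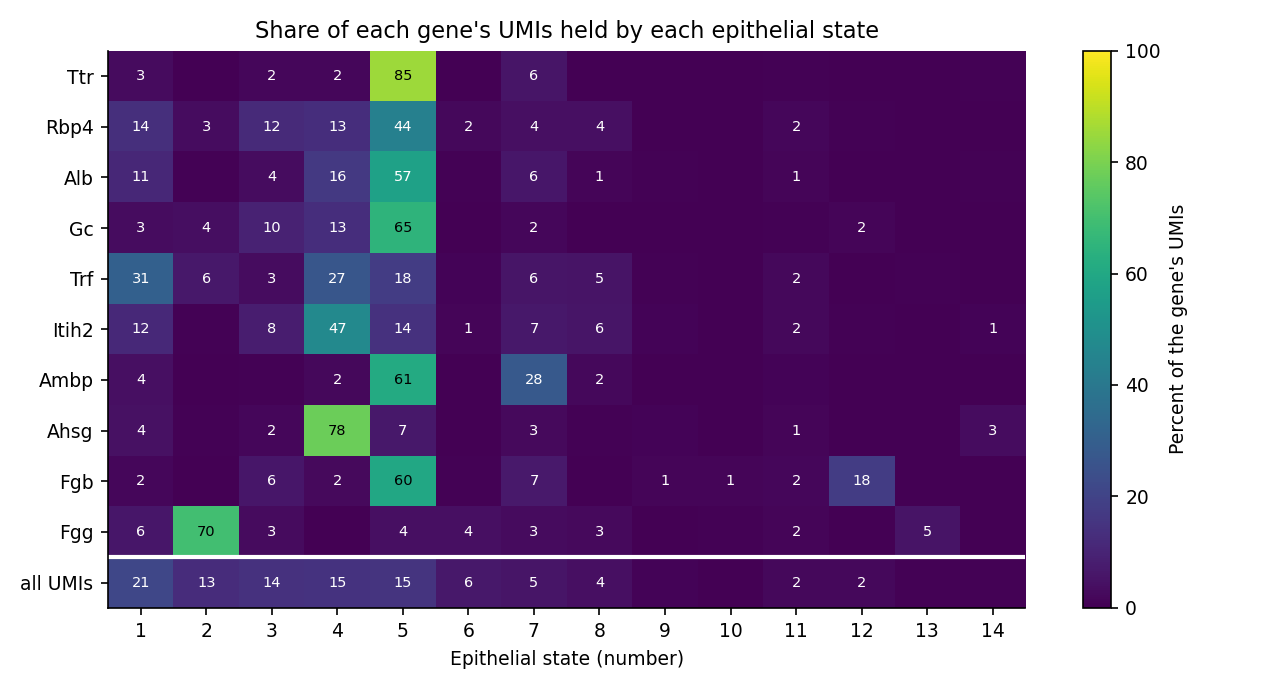
Share of each gene's epithelial-like UMIs, in percent (colour and printed where at least 1), held by each of 14 epithelial states, 4 libraries pooled, with the share of all UMIs in the bottom row. State 5 holds most of Ttr, Gc, Ambp, Fgb and Alb, state 4 most of Ahsg, and state 2 most of Fgg.

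State 4 was the mirror of state 5 across the labels. It made up 1.10% and 1.78% of epithelial-like cells in the libraries labelled vehicle and 18.9% and 23.4% in those labelled tamoxifen. Hnf4a pooled over libraries stood at 125 CPM in state 4 and 85.8 CPM in state 5. State 8 (Ecrg4, Magi2, Prlr) was nearly confined to the vehicle label, with 5.22% and 6.52% of cells against 0.0902% and 0.155%. Its pooled levels were modest for Ttr (2.58 CPM) and Gc (0.430 CPM) and higher for Itih2 (73.4 CPM) and Rbp4 (329 CPM).

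Levels per state, pooled over libraries, set the members into different orders. Ttr stood at 173 CPM in state 5, followed by state 14 (Dcpp3, Adgrg7, Dcpp2; 50 cells) with 45.9 and cycling state 7 (Rrm2, Cenpf, Esco2) with 31.1, and at most 9.13 CPM in the other 11 states. Few cells made up the levels of states 14 and 7. In state 14, 64 of the 71 Ttr UMIs lay in 5 cells of the tamoxifen-labelled library after depletion, and in state 7, 1 cell held 170 of 575. Rbp4 stood at 927 CPM in state 5 and between 84.8 and 335 CPM in the other 13. That order rests on the pooling, since most cells of state 4 carry the tamoxifen label: in the vehicle-labelled library after depletion Rbp4 stood at 1121 CPM in state 4 and 1014 CPM in state 5. Alb stood at 225 CPM in state 5, at 67.0 in state 7 and at 66.8 in state 4, and lowest at 2.08 in state 2. The levels of states 7 and 4 did not differ beyond counting error, but 1 cell held 494 of the 3288 Alb UMIs of state 4. The pooled level without that cell was not computed. Itih2 was highest in states 4 (176 CPM) and 14 (139 CPM) and lowest in state 2 (1.78 CPM). Trf was highest in state 4 (3556 CPM), then state 1 (2797 CPM) and state 8 (2492 CPM), and lowest in states 12 (236 CPM) and 6 (263 CPM), the latter being led by the alveolar type 1 genes Rtkn2, Akap5 and Hopx. With finer clustering Ttr peaked at 217.6 CPM and Ambp at 23.1 CPM, against 6.87 CPM for Ambp in state 7 here, where 114 of 127 UMIs were of 1 cell.

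Within state 5 the carriers were lower under the tamoxifen label as well. Ttr stood at 189.6 and 196 CPM in the libraries labelled vehicle (111 and 1157 cells) compared with 45.7 and 60.5 CPM in those labelled tamoxifen (17 and 209 cells). Rbp4 stood at 943 and 1014 CPM against 369 and 546.5 CPM, Alb at 247 and 242 against 103 and 140.4 CPM, and Gc at 51.2 and 30.9 against 4.81 and 3.39 CPM. For these 4 members both tamoxifen-labelled libraries were below both vehicle-labelled ones, though the tamoxifen-labelled library before depletion rests on 17 cells. The share of all genes that lay apart in this way in state 5 was not counted, so these values only describe the members. Itih2 ran opposite inside the same state, at 44.6 and 41.3 CPM under the vehicle label and 81.7 and 109.5 CPM under the tamoxifen label. Ahsg was near 1 CPM in state 5 under the vehicle label (1.17 and 0.93 CPM), with 0 and 3 UMIs under the tamoxifen label.

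Within state 4, where only 12 and 116 cells carried the vehicle label, Itih2 stood at 150.3 and 102 CPM under that label and at 228 and 169 CPM under the tamoxifen label (209 and 1661 cells). Ahsg gave 1 and 8 UMIs under the vehicle label (2.28 and 2.93 CPM) and 142 and 369 under the tamoxifen label (16.4 and 9.86 CPM). Rbp4 was lower there too, at 660.5 and 1121 CPM against 245 and 237 CPM. Ttr and Gc were not lower after depletion, with log2 ratios of 0.22 (interval -0.73 to 1.53) and 0.51 (-0.26 to 1.63). The cell with 494 Alb UMIs lies in this state, and Alb stood at 104.6 CPM there before depletion under the tamoxifen label, against 55.8 CPM after. Which vehicle-labelled cells count as state 4 depends on the clustering. With the genes apart between the labels kept, the state led by Gsta3, Jsrp1 and A2ml1 held 6 and 39 cells under the vehicle label. Under the tamoxifen label it held 212 and 1729 cells, and ratios within it were not computed.

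After depletion, 11 states had at least 30 cells in both libraries. Rbp4 was lower under the tamoxifen label in 10 of the 11, with the interval of the ratio below 0 in all 10. Alb was lower in 10 and Ttr in 9, each with 8 intervals below 0. Itih2 was higher in 10, with 9 intervals above 0. Gc was lower in 6 and higher in 5, with 4 intervals below 0, none above, and the largest differences in states 5 and 3 (-2.86 and -2.80). Trf was lower in 5 and higher in 6, each interval clear of 0, with ratios from -1.47 to 1.77. Before depletion 6 states had 30 cells in both libraries. There Ttr and Alb were lower in all 6, with 4 and 5 intervals below 0. Rbp4 was lower in 5, each with its interval below 0, and Itih2 was higher in 4, with 2 intervals above 0.

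**Figure D3:**
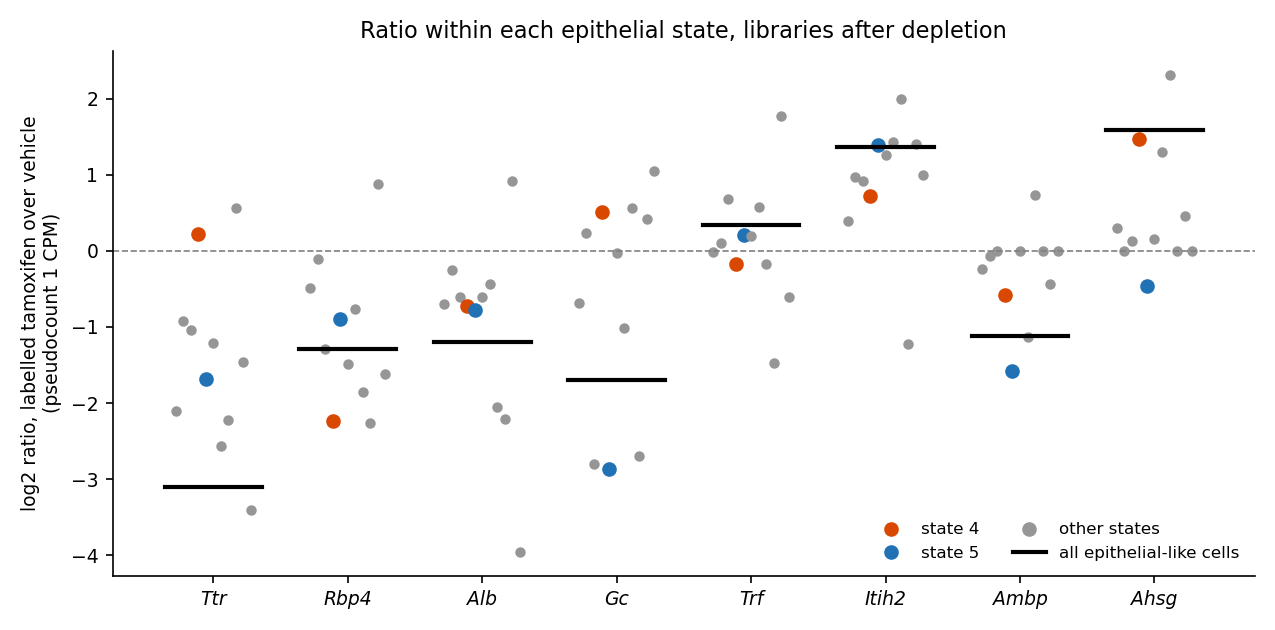
Log2 ratio of the library labelled tamoxifen over that labelled vehicle, both after depletion, within each of 11 epithelial states (points) for 8 members, with 1 CPM added to both levels, and over all epithelial-like cells (black bars). The Rbp4, Alb and Ttr points lie mostly below 0 and the Itih2 points mostly above it, while for Ttr only 1 state lies below the black bar of -3.10.

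Giving both libraries after depletion the same mix of these 11 states separates levels within states from the number of cells in each. At that mix the log2 ratio of Ttr was -1.66 in place of -3.10, that of Alb -0.73 in place of -1.20, and that of Ahsg 0.76 in place of 1.59. Rbp4 and Gc moved less, to -1.17 from -1.30 and to -1.52 from -1.70. Itih2 stood at 0.93 in place of 1.37, and Trf at 0.06 in place of 0.34. Only 5 states had 30 cells in all 4 libraries, which excludes states 4 and 5 and covers 58.6% to 61.4% of UMIs. At a common mix of those 5, Ttr stood at 14.3 and 9.38 CPM under the vehicle label and at 0.850 and 1.67 CPM under the tamoxifen label, and Itih2 at 22.1 and 17.6 against 29.3 and 32.0 CPM. In state 7, 1 cell held 170 of the 173 Ttr UMIs in the vehicle-labelled library before depletion. Without the 1 cell of each library that held most Ttr, the levels at this mix were 5.63 and 8.61 CPM against 0.456 and 1.35 CPM, and the log2 ratios -2.19 and -2.03.

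**Figure D4:**
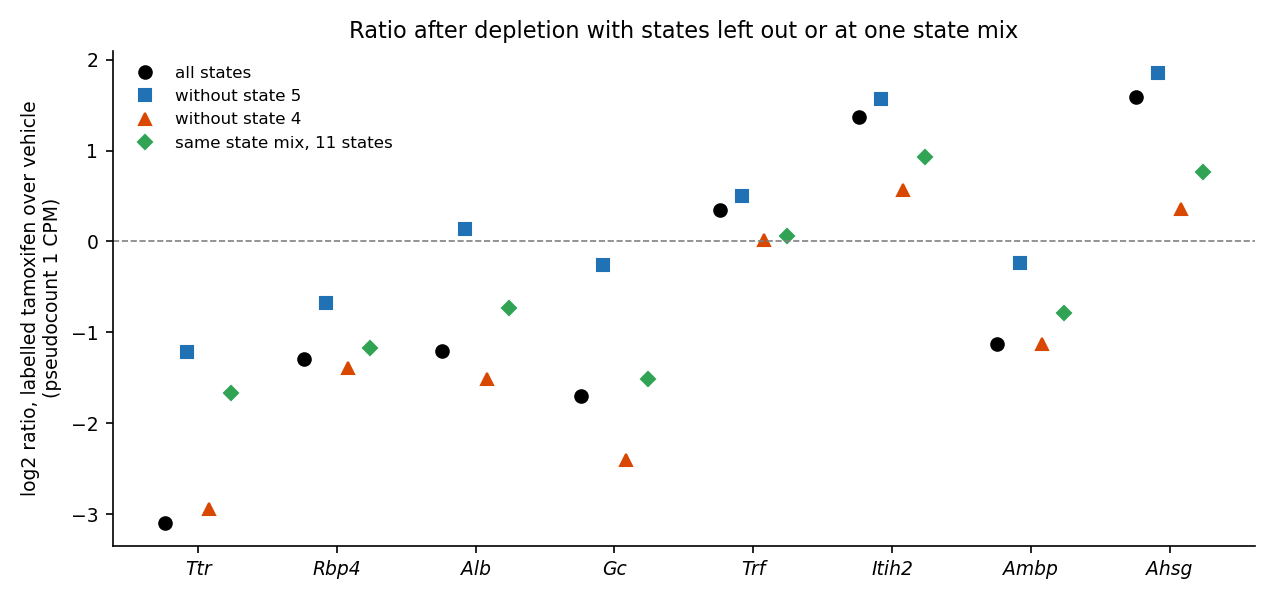
Log2 ratio of the library labelled tamoxifen over that labelled vehicle, both after depletion, for 8 members over all epithelial states (circles), without state 5 (squares), without state 4 (triangles) and at 1 common mix of 11 states (diamonds). Without state 5, Alb moves from -1.20 to 0.14 and Ttr from -3.10 to -1.21, and without state 4, Itih2 moves from 1.37 to 0.57 and Ahsg from 1.59 to 0.36.

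Some pairs of members were detected together within states more often than their own frequencies give. In cells thinned to 5000 UMIs, Ttr and Gc were both seen in 55 cells, 1.64 times the number expected if they were independent within each state and library (interval 1.24 to 2.14). For Ttr and Alb the ratio was 1.40 (1.22 to 1.59, 234 cells), for Itih2 and Alb 1.33 (1.21 to 1.45, 482 cells), and for Ahsg and Itih2 1.45 (1.10 to 1.87, 58 cells). Itih2 was also detected with Ttr more often than expected (1.34, 1.09 to 1.62, 106 cells), although the 2 ran in opposite directions between the labels. For Ttr and Rbp4, the proteins of which bind each other, the ratio was 1.06 (0.96 to 1.17). Gc with Itih2 stood at 1.02 (0.62 to 1.57) in the vehicle-labelled library after depletion and at 0.48 (0.23 to 0.88, 10 cells) in the tamoxifen-labelled one. Fgb and Fgg shared no cell, with 15 and 47 cells holding them and fewer than 1 expected to hold both. Cells of a library share their source, so these ratios describe the libraries and are no test.

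Outside the epithelial-like class most members were rare. Pooled over libraries, Ttr stood at 30.5 CPM in epithelial-like cells and at most at 0.712 CPM in any other class, and Gc at 6.67 and at most 0.923 CPM. Fgb had no UMI outside the class, which in 3797 alveolar macrophage-like cells allows up to 0.0758 CPM. Thinned to 2000 UMIs, 1.95% of epithelial-like cells held Ttr and 7.09% held Itih2, against 0 of 583 endothelial-like cells (up to 0.515%) and 0.172%, and 0.0555% and 0.389% of 1801 T cell-like cells. Unthinned median depths were 18307 UMIs in epithelial-like, 8912 in endothelial-like and 5880 in T cell-like cells.

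Trf was the exception. It stood at 1941 CPM in epithelial-like, 1202 in alveolar macrophage-like, 1144 in ciliated-like and 670 in monocyte or macrophage-like cells, against 125 and 90.9 CPM in endothelial-like and T cell-like cells. Alveolar macrophage-like cells held 1076 CPM before depletion under the vehicle label and 1306 CPM under the tamoxifen label. Pooled over libraries, Ambp was higher in neutrophil-like cells, at 4.77 CPM, than in epithelial-like cells, at 1.34 CPM. The 21 UMIs in neutrophil-like cells were spread over 20 cells and both labels (10 and 11 UMIs before depletion, among 2498007 and 1881702). Of the 1181 neutrophil-like cells, 659 and 508 came from before depletion. Epithelial-like cells before depletion stood at 6.65 CPM under the vehicle label, 3.13 CPM without 1 cell, and at 0.169 CPM under the tamoxifen label. The pooled order thus mixes cell class with library and label. RNA free in the droplets was not measured, and its part in the levels outside the epithelial-like class was not tested. Thinned to 2000 UMIs, Trf was held by 62.2% of epithelial-like, 13.04% of endothelial-like and 7.94% of T cell-like cells. Some high levels elsewhere were of 1 cell: 109 of 164 Rbp4 UMIs in endothelial-like cells and 30 of 56 Alb UMIs in B cell-like cells.

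**Figure D5:**
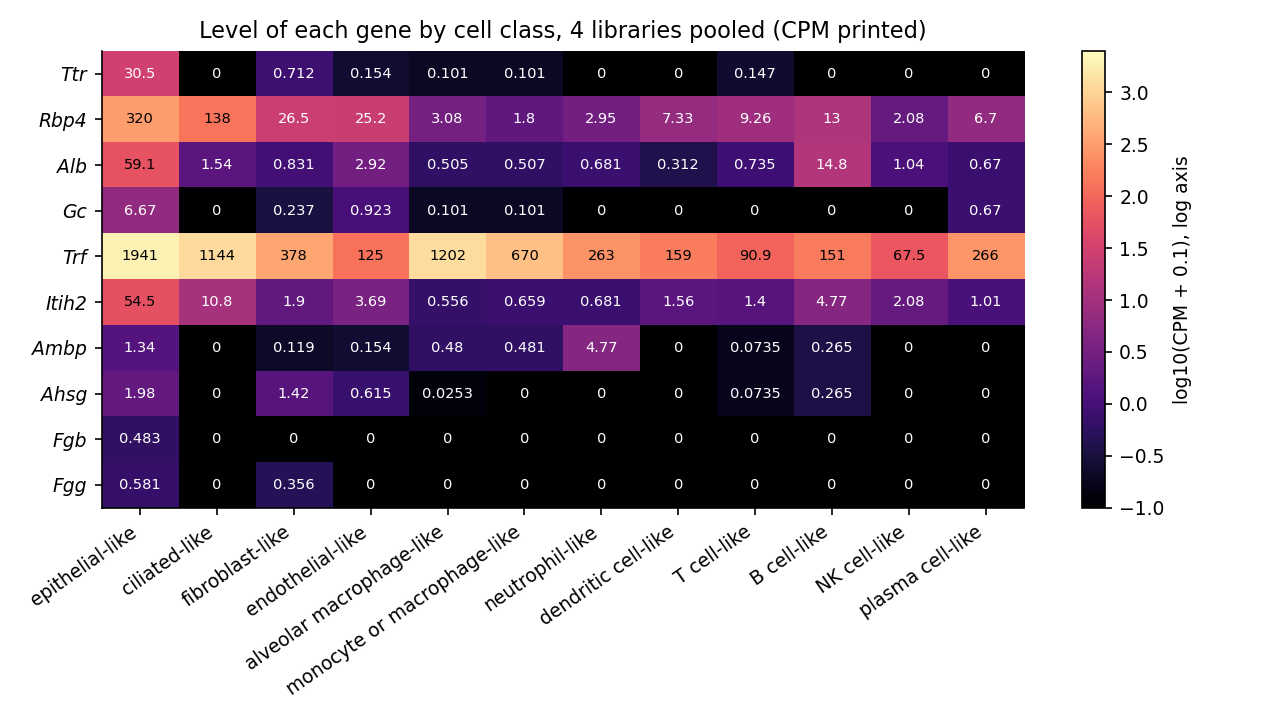
Level of each gene by cell class, 4 libraries pooled, in CPM (printed) and as log10 of CPM plus 0.1 (colour). Epithelial-like cells are highest for every member except Ambp, which stands at 4.77 CPM in neutrophil-like cells and 1.34 CPM in epithelial-like cells, and Trf has UMIs in every class.

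State 5 had the highest summed hepatocyte markers of the 14 states, at 415 CPM, followed by state 14 with 180.3 CPM, and 3 genes made up nearly all of it. Of the 10 hepatocyte markers, 4 (Alb, Apoa1, Ttc36 and Apoa2) stood at 225, 162, 24.6 and 2.76 CPM in it. The other 6 were at 0.552 CPM or less, with 4 UMIs of Cps1, the first enzyme of the urea cycle, 2 of Cyp2e1 and none of Cyp3a11, among 1494 cells. Markers of macrophages were also present, and all 8 alveolar macrophage markers together summed to 203 and 283 CPM in epithelial-like cells before depletion and to 94.6 and 112 CPM after. State 11, led by macrophage genes and found in the libraries before depletion except for 1 of its 221 cells, held 1341 CPM of the same markers. Without it the log2 ratio of Ttr before depletion was -3.60 and that of Itih2 1.35. The part of macrophage RNA in the other differences was not tested.

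Genes with the most similar pattern were sought over 41 sums of 1 state in 1 library, among 8622 genes. The points share libraries and depth, so the correlations are descriptions. Ttr went most closely with Guca2a (r = 0.80), a gut peptide hormone gene, and with Apoa1 (0.78), the main apolipoprotein of high-density lipoprotein. Rbp4 went with Gdf15 (0.86), a stress-induced cytokine gene. Itih2 went with Dlk1 (0.93), a Notch ligand-like gene of fetal tissues, and Cdca7 (0.91), while Alb went with Gap43 (0.88) and Trf with Hdc (0.91), the histidine decarboxylase gene. Lower values were reached for Ahsg (Adgrg7, 0.71), Ambp (Plgrkt, 0.62) and Gc (Plgrkt, 0.57). With Hnf4a itself, r was 0.75 for Itih2, 0.56 for Alb, 0.29 for Ttr and for Rbp4, 0.03 for Trf and -0.66 for Fgg.

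Among the members, the closest pairs on the same measure were Ttr and Alb (0.79), Rbp4 and Alb (0.76), and Itih2 and Alb (0.71). Itih2 and Alb thus went together across states although their levels between the labels ran in opposite directions. Ttr and Itih2 stood at 0.37, and Fgg was negative with each of the other 9 members, from -0.52 with Itih2 to -0.04 with Gc.

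Other genes of the same pathways were counted by the same rule at 1 CPM, by which 1.14% of all genes were lower and 0.366% higher. Of 21 clotting and fibrinolysis genes, 10 reached 1 CPM, and none was lower or higher by 2-fold in both pairs. Among 10 liver apolipoproteins, 7 reached it and 3 were lower: Apoe, the lipid carrier of remnants, at 965 and 1236 CPM against 304 and 329 CPM, Apoc2 and Apom. Their median log2 ratio was -0.74 before and -1.39 after depletion. Of 6 measured protease inhibitors 1 was higher, Tfpi, which blocks the start of clotting, at 0.557 and 0.538 CPM against 6.44 and 7.79 CPM. Fetub, the closest relative of Ahsg, stood at 14.5 and 15.8 against 29.2 and 31.2 CPM, just short of 2-fold, and Itih4 at 143 and 91.3 against 67.2 and 58.5 CPM. Of 10 other carriers 1 was lower, Hpx, the haem carrier, and Afp stood at 40.6 and 56.8 against 36.2 and 44.9 CPM. Of 9 acute phase and complement genes Cfb and Cfi were lower, and of 8 hepatocyte enzymes Otc, of the urea cycle. Hpx, Apoc2, Apom, Cfb, Otc and, below, Slc11a1 were named after their values were seen.

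Among genes that act with the carriers, Stra6, the receptor that takes retinol from Rbp4, was below 1 CPM in all 4 libraries. Tfrc, the transferrin receptor gene, stood at 125.5 and 97.5 CPM against 69.2 and 65.0 CPM (log2 ratios -0.85 and -0.58), opposite to Trf and short of 2-fold. Of 11 iron-handling genes Slc11a1 was lower. Cubn, a receptor for filtered carrier proteins, was lower at 37.0 and 45.1 against 13.9 and 15.5 CPM, while its partner receptor Lrp2 stood at 148 and 127 against 148 and 132.5 CPM.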

How the data were processed

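The deposited matrices hold raw UMI counts per gene and cell, per the file headers written by Cell Ranger 7.0.1, while the submitters' processing notes name Cell Ranger 7.2.0 and mm10. The annotation release and the use of intronic reads are not given in the sources used here. Barcodes under 200 genes or above 20% mitochondrial UMIs were dropped, and those with a Scrublet score above 0.25 were removed (122 to 216 per library), since automatic thresholds called 1 and 0 cells in the libraries after depletion. Clustering used scanpy 1.11.5 and Leiden at resolution 1. A cluster took the first class, in order of marker score, with 3 markers each in 10% of cells and at least as many of its markers in the cluster's top 10 genes as any competing class. This rule replaced a stricter one after clusters were seen. States were clustered on 2000 variable genes and 30 components at resolution 0.6. Counts were summed per library and class and given as CPM, with exact Poisson intervals, and ratios with exact conditional binomial intervals. The size rule was tested on simulated data with set fold differences and counting error around the pooled profile. That simulation held no spread between animals, tumours, cells or states, so it says nothing on those. Shares have Clopper-Pearson intervals, and upper limits for 0 correspond to 3 counts. Thinned shares and co-detection leave out cells shallower than the thinned depth. Named genes are all members, their 3 most similar genes, fixed partners and at most 4 genes per list by level. The members and lists were chosen with earlier results of these data known. Alternatives included scaling by edgeR 4.0.16 TMM factors. Some items withheld for evaluation are not reported here.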

Additional observations from a re-analysis of the deposited data

How the results depend on the processing

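No paired analysis was possible because each group holds 1 library and the labels carry no replicate numbers. Scaling by TMM or by the median of ratios, a pseudocount of 0.1 CPM, 1000 genes per cell, no doublet removal, a gate on each cell by Epcam and Ptprc, classes at resolution 2, and leaving out the state with the highest Lyz1 kept every count of members and of genes within 1.5 times. Of 18 alternatives for each ratio, chosen partly after seeing the data, the ratios of Rbp4, Itih2, Ahsg, Ambp and Trf kept their sign in all in both pairs, though not their size: Rbp4 came to -0.05 and -0.40 and Ambp to -0.11 and -0.14 under the strict naming rule, and Trf to 0.08 and 0.01 without state 4. Alb turned positive without state 5 (0.50 and 0.14) and under the strict naming rule (0.999 and 0.57). The 0.50 includes the state 4 cell with 494 Alb UMIs, and its removal together with state 5 was not tested. With a pseudocount of 5 CPM, 54 genes were lower and 18 higher, and 1 member was higher at 1 CPM. Averaging each cell's CPM gave 1 lower member (2 at 1 CPM) and 50 lower genes. With no minimum, 158 genes were lower and 2 members higher. A minimum of 50 CPM gave 1 lower member, 19 lower genes and 11 higher. A fold of 1.5 gave 191 lower and 99 higher genes, and a fold of 4 gave 1 lower member at either minimum, 10 lower genes, 0 higher members at either minimum and 3 higher genes. The strict naming rule gave 0 lower members at either minimum, 42 lower and 61 higher genes, with ratios of 0.70 for Ttr before depletion and 0.12 and 0.43 for Gc. Without state 5, 0 members were lower (1 at 1 CPM) and 41 genes. Without state 4, 0 members were higher at either minimum, and 14 genes. Members under 1 CPM, Fgb and Fgg, rest on 1 to 108 UMIs per library, and depth limits any statement on them.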
